A study of Mus musculus with 6 samples.

Results

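The 32 genes described here code for enzymes of cholesterol synthesis and for a carrier of sterols, Stard4. They also code for the sterol regulatory element-binding proteins (SREBPs), the proteins that hold them back, and fatty acid enzymes known as SREBP targets. They are listed by name for their place in the pathway, and all 32 were found among the 41819 genes of the count table. They were measured by RNA-seq in mouse 3T3 cells, a fibroblast line whose labels give its type as malignant, to ask which genes follow the expression of human PARG (hPARG), the glycohydrolase that degrades poly(ADP-ribose). All 6 cultures came from 1 clone that carries a lentiviral cassette, pLVX-TetOne-hPARG-IRES-mClover3, in which the TetOne promoter drives hPARG when doxycycline is added. The clone had been selected for its induced hPARG expression. The hPARG group had 3 dishes kept with 500 ng/ml doxycycline for 72 h, and the control group had 3 dishes kept without doxycycline for the same 72 h. Dishes of both groups held serum and puromycin in the medium. The labels speak of wells of a 6-well plate and the methods of 10 cm dishes, and "dish" is used here. Every hPARG dish received doxycycline and no dish without the cassette was part of the comparison, so hPARG and doxycycline cannot be told apart. Since the dishes are cultures of 1 clone, p-values measure the spread between such dishes.

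Cells make cholesterol from acetyl-CoA through mevalonate, farnesyl diphosphate, squalene and lanosterol. The SREBPs are transcription factors made as membrane proteins of the endoplasmic reticulum, where Scap binds them and the Insig proteins retain Scap while sterols are plentiful. When sterols fall, Scap carries the SREBPs to the Golgi, proteases free their active part, and genes of sterol and fatty acid synthesis are transcribed.

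Promoter sequence is shown first because the set holds genes known as SREBP targets. RefSeq promoter windows (GRCm38.p6) run from 250 bases before to 50 after a start site, and 25 of the 32 members were matched, with 33 windows. Fdps, Fdft1, Sqle, Stard4, Scd1, Scd2 and Fads1 were not matched. Both strands were searched for TCACNCCAC, a form of the sterol regulatory element, for its shorter core CACNCCAC, and for CCAAT (letters read by NF-Y), GGGCGG (read by Sp1) and CACGTG (read by E-box factors). The core lies inside the longer form, so each match of the longer is also a match of the shorter. A stricter form, TCACNCCAC with an A directly before it, was searched too. The 3 stretches below stop before the start site and come from the 3 members with a core match. Capitals mark TCACCCCAC and 3 of the 4 CCAAT in Hmgcs1, CCAAT and CACGTG in Insig1, and the core and GGGCGG in Acat2, each on either strand. Other matches are in lower case.
Hmgcs1: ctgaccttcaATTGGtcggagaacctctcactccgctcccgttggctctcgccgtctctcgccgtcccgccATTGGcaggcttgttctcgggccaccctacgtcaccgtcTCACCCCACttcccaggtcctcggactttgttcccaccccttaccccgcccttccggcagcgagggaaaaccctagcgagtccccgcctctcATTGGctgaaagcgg
Insig1: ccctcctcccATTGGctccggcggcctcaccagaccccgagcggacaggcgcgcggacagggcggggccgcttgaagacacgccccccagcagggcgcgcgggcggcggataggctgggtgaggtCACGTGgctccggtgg
Acat2: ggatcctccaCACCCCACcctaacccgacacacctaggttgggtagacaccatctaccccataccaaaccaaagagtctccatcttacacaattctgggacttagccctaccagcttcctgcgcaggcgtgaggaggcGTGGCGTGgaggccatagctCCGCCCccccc
The Hmgcs1 stretch is chr13:119690104-119690320 on the plus strand, the Insig1 stretch chr5:28071186-28071326 on the plus strand and the Acat2 stretch chr17:12960748-12960916 on the minus strand.

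TCACNCCAC was in the promoter window of 1 of the 25 matched members, Hmgcs1 (4%, 95% exact binomial interval 0.101% to 20.4%). Of all 32851 windows, 1.24% held it, and of the 9058 tested genes with a window, 1.34% did. The stricter form with the A before it was in 0 of the 25 members (interval 0% to 13.7%), so Hmgcs1 did not hold it. It was in 0.234% of all windows and in 0.21% of the tested genes. The core CACNCCAC was in 3 members, Acat2, Hmgcs1 and Insig1 (12%, interval 2.55% to 31.2%), in 6.24% of all windows and in 7.35% of the tested genes. In Acat2 it stood at bases -181 to -174 and -53 to -46 before the start site. The match in Insig1 lay at bases -9 to -2, outside the stretch shown. CCAAT was in 20 of the 25 members (80%, interval 59.3% to 93.2%), in 37.4% of all windows and in 44.3% of the tested genes. Mvk held it 5 times, and Hmgcs1 and Nsdhl 4 times each. GGGCGG was in 21 members (84%, interval 63.9% to 95.5%), in 35.7% of all windows and in 70.3% of the tested genes. CACGTG was in Hsd17b7, Sc5d, Dhcr7, Scap and Insig1 (20%, interval 6.83% to 40.7%), in 7.15% of all windows and in 11.8% of the tested genes. Shares over members and tested genes count a gene once if any of its windows held the letters. Such a match describes the letters of the window, and binding was not measured here.

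Libraries held between 21619908 and 25263818 counts per dish. A floor of 3 counts is between 0.119 and 0.139 CPM (counts scaled to library size), and such a floor covers counting error alone, as molecular identifiers are not mentioned. The member with the fewest counts, Tm7sf2, had 94, 67 and 80 counts across the control dishes (1 to 3) and 102, 68 and 91 across the hPARG dishes. Every member was therefore far above the floor. CPM in the text below are normalized by TMM, dishes are given in the order 1, 2, 3, and RPKM, the authors' counts scaled to gene length and depth, are used for levels between genes. How strand was used in counting is not stated, so reads of overlapping or antisense genes cannot be told apart. The share of exon bases in another gene's exons was 26.7% in Fdps (Gm43738, same strand), 18.3% in Fdft1 (Ctsb, other strand), 13.2% in Scap (5830462I19Rik), 12.1% in Hmgcs1 (Gm48342) and 12.1% in Tm7sf2 (Vps51, same strand). In the other members it was under 10%.

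Mouse genes alone have a row in the table, so the human cassette has no value of its own. Mouse Parg had CPM of 48.6, 56.7 and 48.6 in the control dishes and 50.2, 57.7 and 50.3 in the hPARG dishes, with a log2 fold change of 0.04 (SE 0.112). It is a different gene from the cassette and cannot check the labels.

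Fibroblast markers ranged widely in level. Vim, an intermediate filament gene, was the most abundant of the 10 listed, with an RPKM of 1522 ± 141 (SD, n = 3) in control and 1574 ± 139.5 in hPARG dishes. The summed RPKM of the 10 was 2128, 2293 and 1804 in the control dishes and 2197, 2483 and 1976 in the hPARG dishes. Col1a2, Fn1, Thy1, Col1a1 and Col3a1 were also above the median RPKM of all tested genes (8.21) in both group means. Pdgfra (6.19 in control, 4.59 in hPARG dishes) and Pdgfrb (0.601 and 0.769) were below it, and Postn did not pass the filter. Of 9 adipocyte markers none was tested, Plin1, Cidec, Lep and Cfd had 0 counts in every dish, and Adipoq had at most 1. The summed adipocyte RPKM was 0.206, 0.194 and 0.731 (control) and 0.214, 0.309 and 0.356 (hPARG), with Fabp4 the highest at 0.180. Of 7 macrophage and leukocyte markers, Cd14 was the highest at 4.89 RPKM and Adgre1 had 0 counts in every dish, with summed RPKM of 11.6, 8.78 and 11.3 (control) and 10.1, 6.85 and 10.9 (hPARG). Epithelial markers (5 genes, highest Krt8 at 0.164 RPKM) summed to 0.296, 0.416 and 0.513 (control) and 0.257, 0.317 and 0.489 (hPARG). Endothelial markers (4 genes, highest Kdr at 0.0807) summed to 0.247, 0.173 and 0.178 (control) and 0.152, 0.132 and 0.130 (hPARG). Hepatocyte markers (5 genes, highest Alb at 1.32) summed to 1.88, 3.88 and 3.21 (control) and 3.11, 1.20 and 1.51 (hPARG).

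The dishes numbered 2 in the labels stood apart from the other 4, in both groups. The members' deviation of log2 CPM from the group mean rose with exon length in control dish 2 (Spearman's rho 0.735, n = 32 members) and in hPARG dish 2 (0.665). In the other dishes rho lay between -0.713 and -0.535. Deviations within a group cancel out over its dishes, so these values are not independent of those in the dishes numbered 2. Over all tested genes the dishes numbered 2 had a rho of 0.53 (control) and 0.521 (hPARG). The points of such a correlation share a dish, its library and its depth, and no p is given. By role, the 8 fatty acid enzymes had a median deviation of 0.20 in the control dish numbered 2 and of 0.27 in its hPARG counterpart. The 18 sterol synthesis enzymes had -0.17 and -0.09. The fatty acid enzymes had a median exon length of 5372 bases and the sterol enzymes of 4315. After a correction of each dish for GC content and exon length these medians became 0.14 and 0.20 for fatty acid enzymes and -0.17 and -0.03 for sterol enzymes, and rho over the members fell to 0.389 and 0.408. Control dish 1 stood out in another way, as 29 of the 32 members were above their group mean there, against 48.5% of all tested genes. The numbers were 12 and 11 in control dishes 2 and 3 and 19, 19 and 8 in the hPARG dishes. Of all tested genes, 46.0% (hPARG dish 3) to 52.5% (hPARG dish 2) were above it in those dishes.

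**Figure D1:**
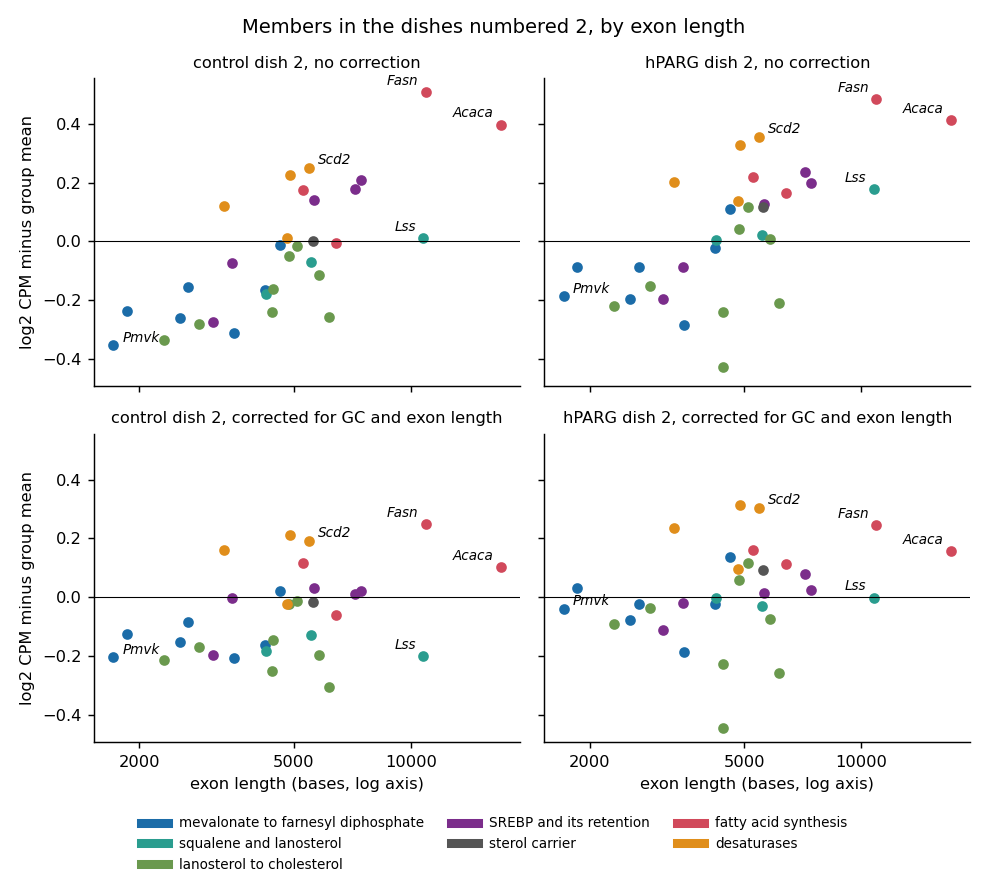
Deviation of log2 CPM from the group mean (vertical axis) against exon length in bases (log axis) for 32 members, one panel per dish numbered 2, without and with correction for GC content and exon length; each point is a gene, coloured by role. Without the correction, Fasn and Acaca lie highest in both dishes and short sterol genes such as Pmvk lie below 0, and with it the spread is narrower but the desaturases stay above most sterol genes.

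No member was called different between hPARG and control. At an FDR (adjusted p from edgeR's quasi-likelihood test, Benjamini-Hochberg over 11509 tested genes) under 0.05, 0 of the 32 members were called, where 10 of all tested genes were (0.0869%). By direction, 1 gene of the table was called higher (0.00869%) and 9 lower (0.0782%), none of them a member. At an unadjusted p under 0.05 there were 0 members and 455 tested genes (3.95%). DESeq2, which tested 16896 genes, called 0 members and 48 genes (0.284%). The count over all genes was 3 without hPARG dish 1, 5 without hPARG dish 3 and 40 without both dishes numbered 2, and 0 members were called in each of these. The lowest edgeR FDR of a member was 0.999. Since p-values that miss the threshold do not show equal levels, intervals of the fold changes are given. The 95% interval of the log2 fold change (each for 1 gene, not adjusted for their number) lay within 2-fold in both directions for all 32 members, and for 90.8% of all tested genes. It lay within 1.5-fold for 26 of the 32 and for 71.1% of the tested genes. The exceptions at 1.5-fold were Cyp51, Tm7sf2, Acaca, Fasn, Scd1 and Scd2.

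The median log2 fold change of the 32 members was 0.04, and that of all tested genes 0.00385. Library sizes alone as scaling moved both alike, to 0.00875 for the members and -0.02 for all tested genes. Without the dishes numbered 2 the members had -0.00488 and all tested genes 0.00525. Fold changes were above 0 in 23 of 32 members with all dishes (50.9% of all tested genes), in 19 with library sizes alone (43.1%) and in 15 without the dishes numbered 2 (51.6%). In CPM, every hPARG dish was above every control dish for 1 member of 32, Dhcr7, against 3.61% of all tested genes, and wholly below for 0 members, against 6.0%. With any 1 dish left out, the fold change kept its sign in 10 of the 32 members, and it stayed within 1.5 times its value in 2, Dhcr7 and Insig2. In bulk RNA, fewer cells with a transcript and less of it per cell cannot be told apart.

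**Figure D2:**
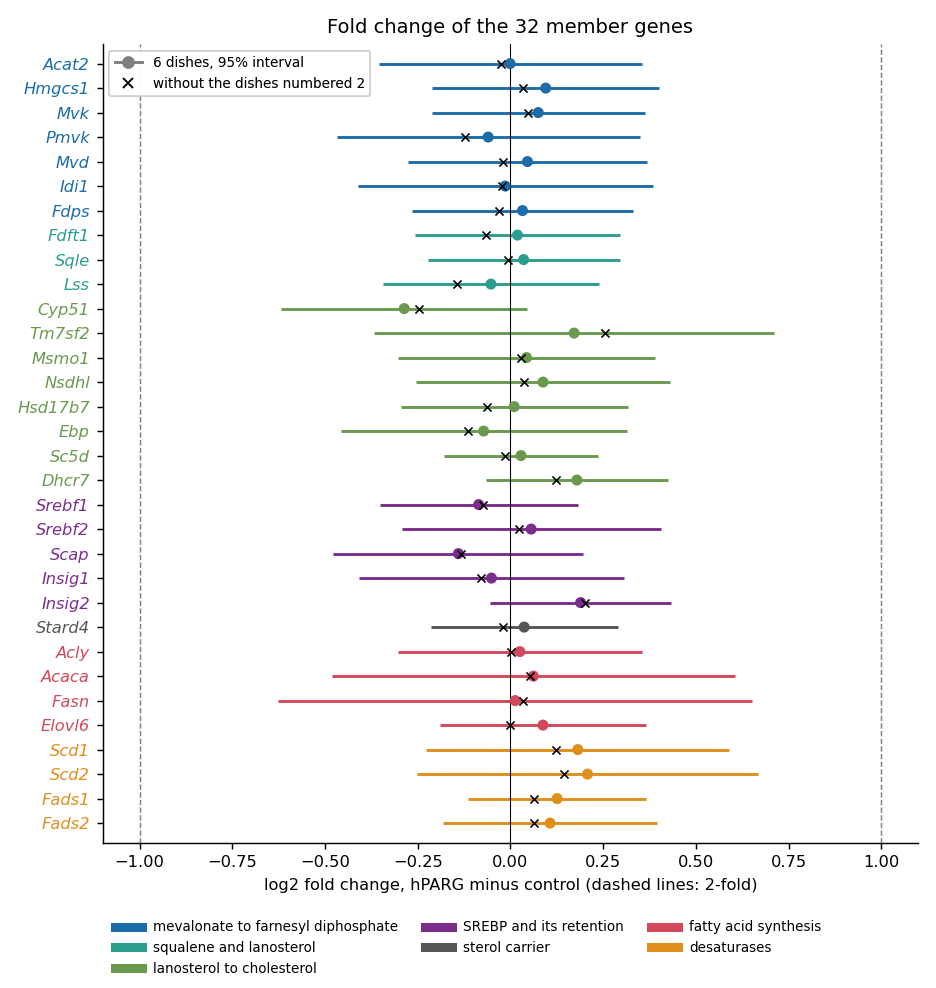
Log2 fold change of hPARG against control (horizontal axis) for the 32 members by role, with dots and lines for the estimate and its 95% interval in edgeR over 6 dishes and crosses for the estimate without the dishes numbered 2. Every line crosses 0 and ends inside the dashed lines at 2-fold, and the estimates run from -0.29 for Cyp51 to 0.21 for Scd2.

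Levels differed among the members far more than between the groups. Per length, the members' mean RPKM over 6 dishes ran from 1.51 for Tm7sf2 to 171 for Scd2, with a median of 24.9 against 8.21 for all tested genes. After Scd2 came Fdps at 135, Msmo1 at 102, Fads1 at 76.5 and Acat2 at 75.3. The order of Fads1 and Acat2 is not resolved, since their dish SDs (up to 12.1 RPKM) exceed the gap. The lowest after Tm7sf2 were Cyp51 at 2.67, Hsd17b7 at 3.79 and Dhcr7 at 4.92, all enzymes between lanosterol and cholesterol.

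**Figure D3:**
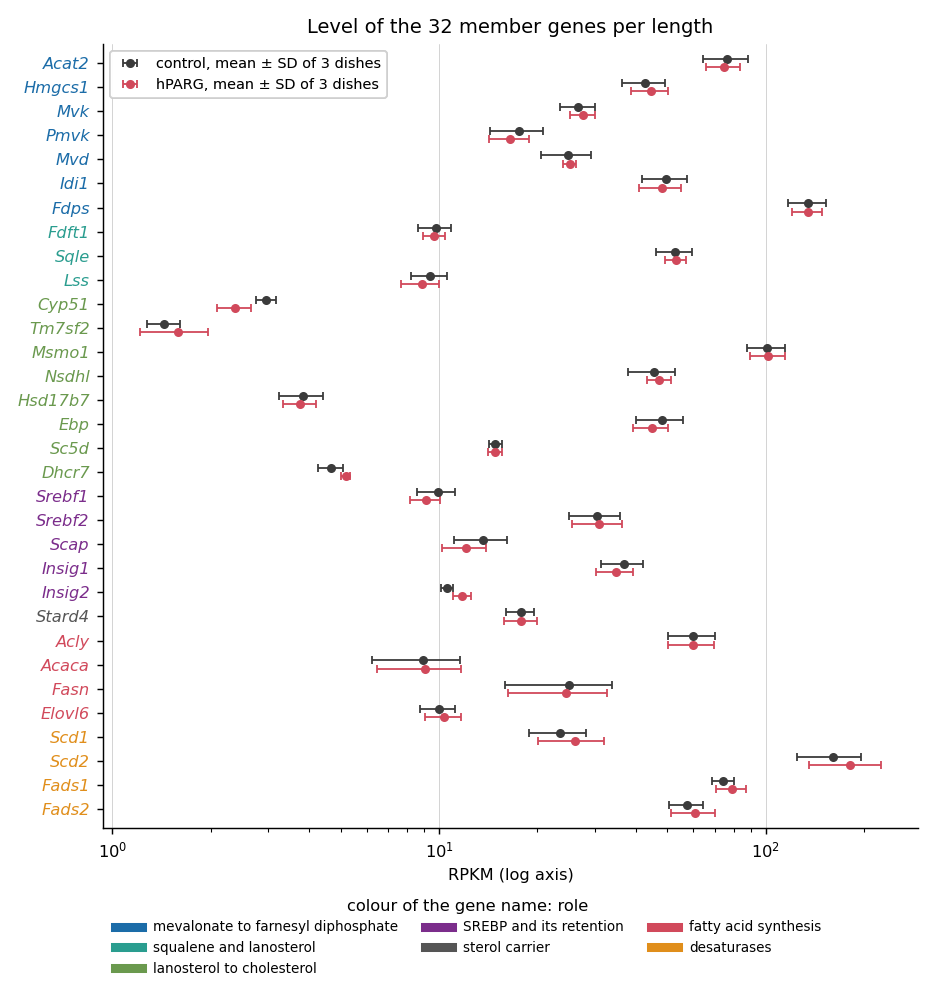
RPKM on a log axis for each of the 32 members, ordered and coloured by role, as mean ± SD of 3 control dishes and of 3 hPARG dishes. Levels run from 1.51 for Tm7sf2 to 171 for Scd2 over all 6 dishes, and the bars of the groups overlap for most genes, with Cyp51 the clearest exception.

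The mevalonate arm, from acetyl-CoA to farnesyl diphosphate, had 7 members. Their summed RPKM was 430.1, 333 and 354 in the control dishes and 409, 357 and 348 in the hPARG dishes. The sums overlapped, and dish 1 was the highest of each group. Log2 fold changes ran from -0.06 to 0.09, with a median of 0.03 that was -0.02 without the dishes numbered 2, 0.15 without control dish 1 and -0.07 without control dish 2. Acat2 (ENSMUSG00000023832), the cytosolic thiolase that joins acetyl-CoA units, had CPM of 238, 169 and 207 in control and 230.3, 178 and 206 in hPARG dishes. Both dishes numbered 2 were the lowest of their group, and the groups overlapped. Its log2 fold change was -0.00104 (SE 0.153, 95% interval -0.36 to 0.35). Hmgcs1 (ENSMUSG00000093930), the HMG-CoA synthase whose promoter is shown above, had CPM of 191, 165 and 147 in control and 187, 192 and 157 in hPARG dishes. Dish 3 was the lowest of each group, and the groups overlapped. The log2 fold change of Hmgcs1 was 0.09 (SE 0.132, interval -0.21 to 0.40) and 0.03 without the dishes numbered 2. Mvk, which phosphorylates mevalonate, had CPM of 65.3, 51.3 and 55.9 (control) and 66.5, 56.8 and 58.4 (hPARG). Pmvk, which adds the next phosphate, had 37.6, 25.1 and 35 CPM in control and 36.2, 27.2 and 30.3 in hPARG dishes. In Pmvk, the shortest member at 1713 exon bases, dish 2 was lowest in both groups, by -0.35 and -0.19 on the log2 scale from the group mean. Mvd, the decarboxylase that yields isopentenyl diphosphate, had CPM of 59.2, 41.8 and 48.5 (control) and 54, 48.4 and 52.1 (hPARG). For the isomerase Idi1 they were 185, 132 and 179.5 (control) and 182, 133 and 176 (hPARG), again with dish 2 low in each group. Idi1 had a log2 fold change of -0.01 (SE 0.172), and its dishes of the same group differed by more than the groups did. Fdps, the synthase of farnesyl diphosphate and the most abundant enzyme of this arm per length, had CPM of 296, 229 and 249.6 (control) and 290.0, 259 and 243 (hPARG). Its RPKM was 135 ± 17.9 (SD, n = 3) in control and 135 ± 14 in hPARG dishes. The groups overlapped in all 7 genes of this arm.

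Squalene and lanosterol are made by 3 members. Fdft1, the squalene synthase, had CPM of 45.2, 35.3 and 40.1 in control and 43.1, 40.8 and 38.3 in hPARG dishes. Sqle, the squalene epoxidase, had 178, 149 and 145 (control) and 168, 163 and 152 (hPARG). Lss, the cyclase that forms lanosterol, had 54.8, 49.8 and 44.4 (control) and 44, 54 and 45.7 (hPARG). The control values of all 3 enclosed or overlapped the hPARG values, and control dish 1 was the highest dish of each gene. Their log2 fold changes were 0.02 for Fdft1 (SE 0.120), 0.04 for Sqle (SE 0.112) and -0.05 for Lss (SE 0.125). Without the dishes numbered 2 that of Lss was -0.14, and that of Sqle -0.01. Per length Sqle was the most abundant of the 3, with an RPKM of 53 ± 6.63 (SD, n = 3) in control dishes, while Fdft1 had 9.76 ± 1.15 and Lss 9.39 ± 1.20.

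The 8 members from lanosterol to cholesterol held the lowest fold change of the set and the 1 gene without overlap between groups. Cyp51 (ENSMUSG00000001467, chromosome 5), the lanosterol demethylase, had CPM of 13, 11.2 and 13.4 in the control dishes and 11, 8.65 and 11.3 in the hPARG dishes. Control dish 2 lay just below the highest hPARG dish, so the groups overlapped, and hPARG dish 2 was the lowest of all 6. The log2 fold change was -0.29 (SE 0.143, 95% interval -0.62 to 0.04), with an unadjusted p from edgeR of 0.0811, the smallest of the members. It was -0.25 without the dishes numbered 2, -0.17 without hPARG dish 2 alone and -0.36 without control dish 2 alone. Its counts were 334, 260.0 and 285 in control and 239, 210.0 and 246 in hPARG dishes. Dhcr7 (ENSMUSG00000058454, chromosome 7), the reductase of the last step in one branch of the pathway, had CPM of 19.2, 16.2 and 17.3 in control and 19.9, 20 and 19.7 in hPARG dishes. All hPARG dishes were above all control dishes, the closest being control dish 1, and the hPARG dishes differed little among themselves. Its log2 fold change was 0.18 (SE 0.106, interval -0.07 to 0.42) and 0.12 without the dishes numbered 2. Tm7sf2, a sterol reductase of the step after Cyp51, had 3.67, 2.88 and 3.77 CPM in control and 4.68, 2.80 and 4.17 in hPARG dishes. Dish 2 was the lowest of each group, and hPARG dishes 1 and 3 were above the control dishes. With the highest upper bound of the set, its log2 fold change of 0.17 had an interval of -0.37 to 0.71. It was 0.02 without hPARG dish 1, 0.36 without hPARG dish 2 and 0.06 without control dish 2.

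Msmo1, which oxidizes the methyl groups of sterols, was the most abundant of these 8 per length, with CPM of 289, 215 and 273 in control and 300.1, 229.7 and 272 in hPARG dishes. Nsdhl, the decarboxylating dehydrogenase that follows it, had 123, 86.5 and 109 (control) and 123, 101 and 115 (hPARG) CPM. Ebp, a sterol isomerase, had 99.9, 70.8 and 101 (control) and 96, 73.5 and 88.9 (hPARG). In these 3 genes dish 2 was the lowest of each group. Hsd17b7, the keto reductase of the same demethylation steps, had CPM of 23.7, 20.4 and 18.2 (control) and 21.2, 22.6 and 18.9 (hPARG), and dish 3 was the lowest of each group. Sc5d, a sterol desaturase, had 81.2, 75.5 and 77.6 CPM in control and 78.7, 82.1 and 78.2 in hPARG dishes. Its 6 dishes were the most alike of any member, with the smallest SE of the set (0.0893) around a log2 fold change of 0.03. For Msmo1, Nsdhl, Ebp and Hsd17b7 the log2 fold changes were 0.04, 0.09, -0.07 and 0.01. Across all 18 sterol synthesis enzymes the summed RPKM was 667 ± 85.9 (SD, n = 3) in control and 665 ± 54.3 in hPARG dishes. The median log2 fold change of the 18 was 0.03, with 12 of 18 above 0. It was -0.02 (6 above 0) without the dishes numbered 2, 0.13 (17 above 0) without control dish 1 and -0.05 (4 above 0) without control dish 2.

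**Figure D4:**
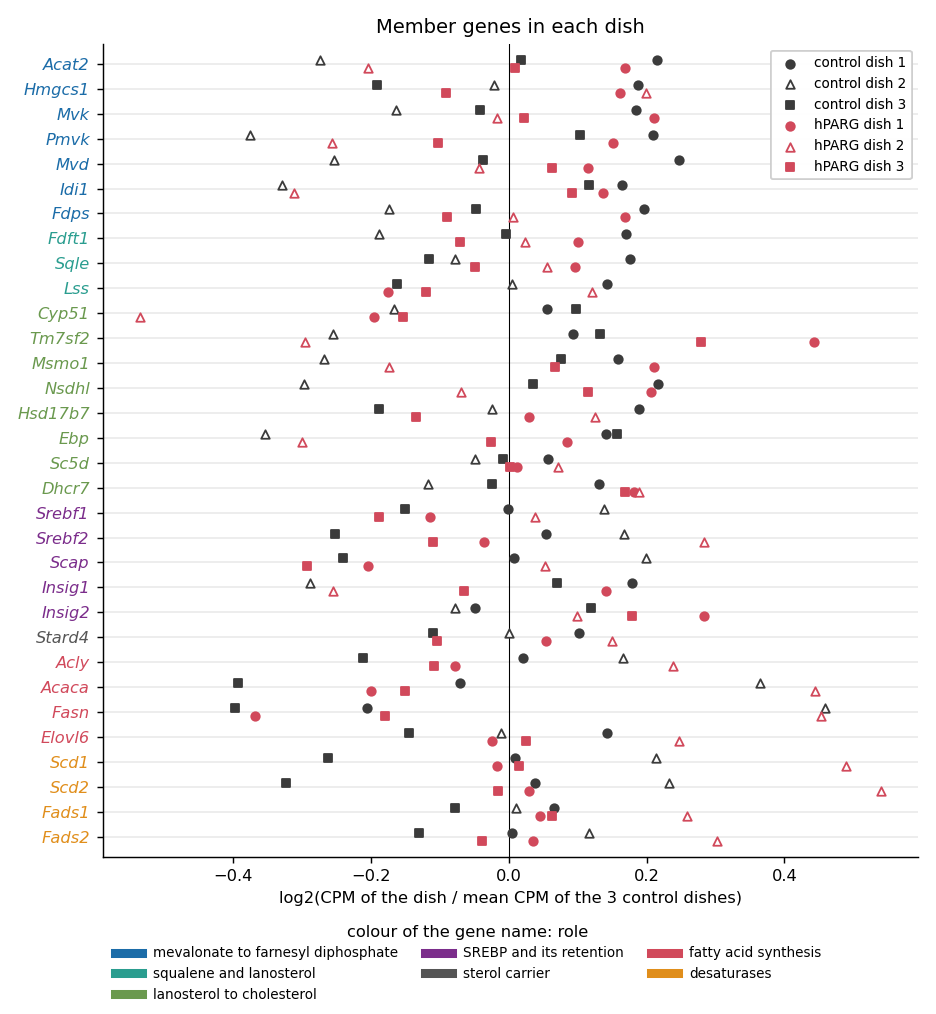
Log2 of the CPM of each dish over the mean CPM of the 3 control dishes, for the 32 members by role; grey marks are control dishes and red marks hPARG dishes, and open triangles are the dishes numbered 2. Both triangles lie left of the other dishes for Acat2, Pmvk, Mvd, Idi1, Tm7sf2, Msmo1, Nsdhl, Ebp and Insig1 and right of them for Srebf1, Srebf2, Scap, Acly, Acaca, Fasn, Scd1, Scd2 and Fads2, and Dhcr7 alone has all red marks to the right of all grey ones.

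The 2 SREBP genes and the 3 that govern their exit from the endoplasmic reticulum form the next group. Srebf2, whose protein acts mainly on sterol genes, had CPM of 178, 193 and 144 in control and 167, 209 and 159 in hPARG dishes. Srebf1, whose protein acts mainly on fatty acid genes, had 47.1, 51.8 and 42.4 (control) and 43.5, 48.3 and 41.3 (hPARG) CPM. Dish 2 was the highest of each group for both genes, and the groups overlapped. Srebf2 had a log2 fold change of 0.06 (SE 0.151, interval -0.29 to 0.40) and Srebf1 of -0.09 (SE 0.115, interval -0.35 to 0.18). The ratio of Srebf2 to Srebf1 in RPKM was 3.20, 3.14 and 2.87 in the control dishes and 3.25, 3.65 and 3.25 in the hPARG dishes. All 3 hPARG ratios were above the control ratios, by a narrow margin between control dish 1 and hPARG dishes 1 and 3. This ratio was 1 of 5 computed between members, and the other 4 overlapped.

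Scap, the escort of the SREBPs, had CPM of 68.5, 78.2 and 57.6 in control and 59.1, 70.6 and 55.6 in hPARG dishes. Dish 2 was again the highest of each group. Scap had a log2 fold change of -0.14 (SE 0.146, interval -0.48 to 0.20) and of -0.13 without the dishes numbered 2. With 1 dish left out it ran from -0.25 (without hPARG dish 2) to -0.03 (without control dish 2). Insig1, a retention protein and itself a known SREBP target, had CPM of 121, 87.6 and 112 (control) and 118, 89.7 and 102 (hPARG), with dish 2 the lowest of each group. Its log2 fold change was -0.05 (SE 0.154, interval -0.41 to 0.31). Insig2, the related retention protein, had 33.3, 32.6 and 37.4 CPM in control and 41.9, 36.8 and 38.9 in hPARG dishes. The hPARG dishes were mostly higher, but control dish 3 lay above hPARG dish 2. For Insig2 the log2 fold change was 0.19 (SE 0.105, interval -0.05 to 0.43) and 0.20 without the dishes numbered 2. The RPKM ratio of Insig1 to Insig2 was 4.07, 3.01 and 3.36 in the control dishes and 3.15, 2.72 and 2.94 in the hPARG dishes. These ratios overlapped between the groups. Stard4, a soluble carrier of sterols, had CPM of 107, 99.7 and 92.3 in control and 104, 111 and 92.8 in hPARG dishes, with overlap, and a log2 fold change of 0.04 (SE 0.109).

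Fatty acid synthesis showed the widest spread between dishes of 1 group. Fasn (ENSMUSG00000025153, chromosome 11), the fatty acid synthase, had CPM of 245, 389 and 215 in control and 219, 387 and 250.0 in hPARG dishes. The dishes numbered 2 were far above the other 4, by 0.51 and 0.48 on the log2 scale from their group means, and the groups overlapped. Its log2 fold change was 0.01 with an SE of 0.276 and an interval of -0.63 to 0.65, the largest SE of the set. After the correction for GC content and exon length the SE was 0.143 and the log2 fold change -0.06, while without the dishes numbered 2 the latter was 0.03. Leaving out control dish 2 alone gave 0.31, and hPARG dish 2 alone -0.27. Acaca, the carboxylase that makes malonyl-CoA and the member with the longest exons (17074 bases), had 91.9, 124 and 73.5 CPM in control and 84.1, 131 and 86.9 in hPARG dishes. Dish 2 was the highest of each group here too. Acaca had a log2 fold change of 0.06 (SE 0.235), and its SE was 0.100 after the correction. Acly, which makes acetyl-CoA from citrate, had CPM of 302, 334 and 257 (control) and 282, 351 and 276 (hPARG). Elovl6, which lengthens palmitate, had 76.1, 68.5 and 62.4 (control) and 67.8, 81.9 and 70.2 (hPARG). Their groups overlapped, and the log2 fold changes were 0.03 for Acly (SE 0.142) and 0.09 for Elovl6 (SE 0.120). Per length Acly was the most abundant of these 4, with an RPKM of 60.1 ± 9.83 (SD, n = 3) in control dishes.

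The 4 desaturases had the highest median log2 fold change of any role, 0.15, which was 0.09 without the dishes numbered 2 and 0.00221 without hPARG dish 2 alone. Scd2 (ENSMUSG00000025203, chromosome 19), a stearoyl-CoA desaturase and the most abundant member, had CPM of 966, 1105 and 752 in control and 960.2, 1368 and 930.4 in hPARG dishes. The dishes numbered 2 were the highest of their groups, control dish 3 was the lowest of all 6, and the groups overlapped. Its log2 fold change was 0.21 (SE 0.198, interval -0.25 to 0.67), and 0.14 without the dishes numbered 2. Leaving out hPARG dish 2 alone gave 0.00645, control dish 3 alone 0.07 and control dish 2 alone 0.34. Scd1, a further stearoyl-CoA desaturase, had 124, 143 and 103 CPM in control and 122, 173 and 125 in hPARG dishes, in the same order of dishes but for hPARG dishes 1 and 3. Scd1 had a log2 fold change of 0.18 (SE 0.176). The RPKM ratio of Scd2 to Scd1 was 6.96, 6.91 and 6.54 in the control dishes and 7.05, 7.07 and 6.68 in the hPARG dishes. The ratio thus stayed between 6.54 and 7.07 over the 6 dishes while the CPM of each gene ranged more widely. Scd1 and Scd2 are close paralogs on chromosome 19, and reads that fit both may have been split between them. Fads1 and Fads2, neighbours on chromosome 19 that desaturate polyunsaturated fatty acids, are the other desaturases. Fads1 had CPM of 311, 299 and 281 (control) and 307, 355 and 310.2 (hPARG). Fads2 had CPM of 198, 214 and 180.4 (control) and 202, 244 and 192 (hPARG). In both, hPARG dish 2 was the highest of all 6, and the groups overlapped. The log2 fold changes were 0.13 for Fads1 (SE 0.104, interval -0.12 to 0.37) and 0.11 for Fads2 (SE 0.124, interval -0.18 to 0.40). Over the 8 fatty acid enzymes, summed RPKM was 427, 489 and 343 among control dishes and 407, 554 and 391 among hPARG dishes. Fold changes were above 0 in all 8 with all dishes, in 7 without the dishes numbered 2 and in 2 without hPARG dish 2. They were above 0 in 6 with library sizes alone, a scaling that also lowered the share of all tested genes above 0 to 43.1%. The GC content and exon length correction left 6 of the 8 above 0.

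**Figure D5:**
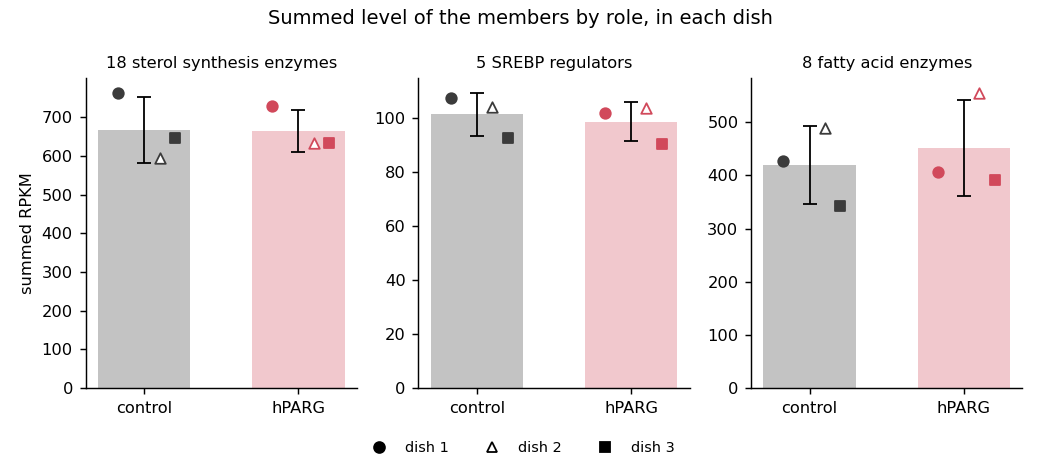
Summed RPKM of the 18 sterol synthesis enzymes, the 5 SREBP regulators and the 8 fatty acid enzymes in each dish (points; open triangles are the dishes numbered 2), with bars and lines for the mean ± SD of 3 dishes. The means were 666.9 in control and 664.6 in hPARG dishes for sterol enzymes, 101 and 98.7 for the regulators, and 419.7 and 450.6 for fatty acid enzymes, with points of both groups interleaved.

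Further genes of the pathway were read from 7 lists with 114 genes, of which 108 were tested. With all dishes and no further term, none was called by edgeR (0 higher, 0 lower) or by DESeq2, and 2 had an unadjusted p under 0.05 in edgeR (1.85%, against 3.95% of all tested genes). Their median log2 fold change was 0.00704. The groups did not overlap for 5 of the 108, 2 above and 3 below, against 9.62% of all tested genes in either direction.

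SREBP processing and Insig turnover had 21 genes, all tested, with a median log2 fold change of 0.00958. The smallest p in this list were those of Sec23a, a coat protein of vesicles that leave the endoplasmic reticulum (0.25, SE 0.134), Erlin1 (-0.16, SE 0.120) and Sec24c (0.14, SE 0.126). A list of sterol efflux genes, LXR (the sterol-sensing nuclear receptor), related receptors and LXR targets had 6 of 10 genes tested. The 6 were Nr1h2, Rxra, Rxrb, Mylip, Lpcat3 and Arl4c, with a median of 0.09. Abca1 and Abcg1 were not tested. Arl4c, an LXR target, had CPM of 149, 197 and 151 in control and 119.7, 139.6 and 122 in hPARG dishes. All its hPARG dishes lay below all control dishes, with a log2 fold change of -0.38 (SE 0.137, unadjusted p 0.0241, FDR 0.999 in edgeR) and of -0.31 without the dishes numbered 2. With a term for those dishes Arl4c was called by edgeR (FDR 0.00869). That was 1 of the 108 tested genes of the 7 lists, beside 1.53% of all tested genes. Lpcat3 had 0.21 (SE 0.126) and Rxra 0.16 (SE 0.187). Sterol transport and esterification had 19 of 20 genes tested and a median of -0.00413. Gramd1a, a sterol transfer protein, had CPM of 51.9, 51.7 and 53.7 (control) and 61.1, 58.1 and 59.3 (hPARG), with hPARG dishes wholly above and a log2 fold change of 0.18 (SE 0.0883). Stard3 had -0.16 (SE 0.110) and Stard5 -0.22 (SE 0.158).

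Other branches of the mevalonate pathway, which make ubiquinone, dolichol and prenyl groups, had 14 of 14 genes tested and a median of -0.06, with 5 fold changes above 0. Pdss2 of ubiquinone synthesis had a log2 fold change of -0.26 (SE 0.127) and Pdss1 of -0.19 (SE 0.139). Fntb, a subunit of farnesyltransferase, had 22.9, 26.6 and 22 CPM in control and 19.9, 21.9 and 21.2 in hPARG dishes, wholly below, and a log2 fold change of -0.18 (SE 0.113). Further SREBP targets and lipogenic genes had 26 of 26 genes tested and a median of -0.00439. Cyb5r3, which passes electrons to desaturases, had CPM of 243, 256 and 239 in control and 286, 310.1 and 278 in hPARG dishes. Its hPARG dishes lay wholly above, with a log2 fold change of 0.24 (SE 0.0951, unadjusted p 0.0338, FDR 0.999 in edgeR) and of 0.23 without the dishes numbered 2. A block by dish number, a pairing the labels do not state, called Cyb5r3 (FDR 0.0256 in edgeR). That block called 2 of the 108 tested list genes, beside 2.87% of all tested genes. With a term for the dishes numbered 2 Cyb5r3 was not called (FDR 0.0635 in edgeR). Mid1ip1, a partner of acetyl-CoA carboxylase, had CPM of 101, 104 and 104 (control) and 96, 94 and 89.8 (hPARG), with hPARG dishes wholly below and a log2 fold change of -0.14 (SE 0.0877). Acsl3 had 0.11 (SE 0.0996). SREBP co-factors had 11 of 11 genes tested and a median of 0.05, with Nfyc at -0.11, Ncoa1 at 0.22 and Med15 at 0.12. Fatty acid oxidation had 11 of 12 genes tested and a median of 0.02, with Acadm at 0.12, Cpt1a at -0.11 and Hadha at 0.06.

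Among the fibroblast markers 9 of 10 were tested and 0 were called by edgeR or DESeq2, while 4 had an unadjusted p under 0.05 in edgeR (3.95% of all tested genes did). Col3a1, a fibrillar collagen, had CPM of 57.2, 61.6 and 51.5 in control and 74.6, 83.2 and 66.1 in hPARG dishes, a log2 fold change of 0.39 (SE 0.122). Pdgfra, a growth factor receptor, had 63.9, 69.3 and 58.2 (control) and 48.4, 54.8 and 42.1 (hPARG) CPM, a log2 fold change of -0.40 (SE 0.128). Thy1, a surface glycoprotein, had 159, 144 and 156 (control) and 188, 175 and 203 (hPARG) CPM, a log2 fold change of 0.30 (SE 0.101). The groups did not overlap in these 3 genes, against 9.62% of all tested genes, nor in Col1a1, named after its values were seen, with a log2 fold change of 0.58 (SE 0.213). Col1a1 was called by edgeR without the dishes numbered 2. With a term for those dishes edgeR called 5 of the 9, namely Col1a1, Col3a1, Pdgfra, Thy1 and Fn1, and 176 of all tested genes (1.53%).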

How the data were processed

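RNA-seq of 6 dishes was used, with poly(A) RNA read as 150 bp pairs. The authors mapped reads to the mouse genome with CLC Genomics Workbench 12.0, up to 10 hits per read, and deposited counts per gene. The deposited RPKM of the authors were used for levels between genes. TPM and CPM columns and the authors' comparison columns, which hold fold changes and p-values, were not used. All 41819 gene identifiers were found in GENCODE M21, which gave exon lengths. How strand was used in counting is not stated.

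Counts were tested in R 4.3.3 with edgeR 4.0.16 (filterByExpr with a minimum count of 10, TMM, quasi-likelihood F test of hPARG against control, Benjamini-Hochberg over 11509 genes). A gene was called at an FDR under 0.05 at any fold change. SE is the absolute log2 fold change over the square root of F. An exact permutation test of 3 against 3 dishes cannot give a p under 0.1. The script was tested on simulated data. Alternatives were DESeq2 1.42.0, other scaling and filters, each dish or both dishes numbered 2 left out, a term for those and a replicate block. Another, with and without the block, corrected each dish for GC content and exon length. It used natural splines of 4 degrees of freedom as offsets in edgeR. Exact intervals used scipy 1.17.1. Libraries of the control dishes held 25263818, 22512587 and 21619908 counts, and those of the hPARG dishes 22136902, 23897120 and 22482282.

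All members were named, as were the 3 genes of smallest p in each of the 7 further lists and among the fibroblast markers. The most abundant marker of each cell type and markers at 0 were named too. Members and lists were chosen with earlier results of these data known.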

Additional observations from a re-analysis of the deposited data

How the results depend on the processing

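No member was called under any of the 16 alternatives, and the lowest member FDR was 0.107, for Insig2 with the GC content and exon length correction and the replicate block. All tested genes called were 10 with edgeR and all dishes, 48 of 16896 with DESeq2 and 16 of 16898 with no filter. They were 40 without both dishes numbered 2, 176 with a term for those dishes and 27 with the GC content and exon length correction. With that correction and the replicate block they were 327, and with 1 dish left out 3 to 13. The cause of these shifts was not tested. The largest shift of a member log2 fold change under an alternative was 0.30. Fold changes kept their sign throughout for 9 members (Hmgcs1, Cyp51, Tm7sf2, Dhcr7, Srebf1, Scap, Insig2, Scd2 and Fads1) and changed it at least once for 23. With 1 dish left out, the members' median log2 fold change ran from -0.00110 to 0.12.

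The labels number the dishes but state no pairing. With a replicate block, 330 genes were called by edgeR and 0 members, and Cyp51, Scap, Insig2, Scd1 and Scd2 had an unadjusted p under 0.05, 5 of 32 beside 17.9% of all tested genes. Deviations from the group mean correlated at r = 0.0963, 0.61 and 0.168 between dishes of the same number (n = 11509 genes, which share a dish and its library). Control dish 1 correlated best with hPARG dish 3 (0.207) and control dish 3 with hPARG dish 1 (0.335), so only the dishes numbered 2 matched best by number. Among the further lists the block called Arl4c (FDR 0.00479) and Cyb5r3 (0.0256), and the term for the dishes numbered 2 called Arl4c. These were 2 and 1 of the 108 tested list genes, beside 2.87% and 1.53% of all tested genes. Of the fibroblast markers the block called 6, Col1a1, Col3a1, Pdgfra, Thy1, Fn1 and Fbn1, and the GC content and exon length correction with the block called 5, the same genes but Fbn1. With all dishes and neither block nor term, edgeR called 0 of them with or without that correction.

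Limits are 1 clone, 3 dishes per group, and doxycycline given to hPARG dishes alone. The lowest member, Tm7sf2, had 67 counts in its lowest dish, and its SE of 0.233 was among the 3 largest. Protein, SREBP cleavage and sterol content were not analysed here.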
